A study of Mus musculus with 8 samples.

Results

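The genes described here encode the positive transcription elongation factor b (P-TEFb), its inhibitors in the 7SK ribonucleoprotein and the core of the super elongation complex. They are Hexim1, Cdk9, Ccnt1, Ccnt2, Aff1, Aff4, Larp7, Ell and Ell2. Every non-control probe that the array files assign to one of these 9 genes was taken, which gave 14 of the 39429 probes of the array. The genes were chosen by their shared machinery with the genotype differences of these samples already known, among them those of Hexim1 and Aff4. All genotype differences of the 9 genes are therefore given as a description, with no test.

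The study set adult male mice heterozygous for a gene trap in Brd2 (Brd2+/-) against their wildtype counterparts. There were 4 Brd2 heterozygous and 4 wildtype mice, all of strain C57Bl/6j after repeated backcrossing, and all offspring of matings between heterozygotes. The model rests on a single trapped allele, and the labels name the same protocols for both genotypes and no further treatment. RNA was amplified, labelled with Cy3 or Cy5 and hybridised to 4 two-colour Agilent arrays, with 2 mice of the same genotype on each array. In both genotypes, replicates 1 and 2 lay on one array and replicates 3 and 4 on another, and the odd replicates carried Cy3. Genotype thus varied only between arrays, 2 arrays per genotype.

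P-TEFb is the kinase that releases paused RNA polymerase II into productive elongation. A large share of it is held inactive in the 7SK ribonucleoprotein, where Hexim1 blocks the kinase and Larp7 stabilises the 7SK RNA. Bromodomain proteins of the BET family, to which Brd2 belongs, bind acetylated chromatin. In human cells, HEXIM1 mRNA is used as a marker of BET inhibition because it increases when BET inhibitors are given. The super elongation complex joins P-TEFb to the Ell elongation factors on a scaffold of Aff1 or Aff4.

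The tissue is given in 3 ways by the labels, as prefrontal cortex with striatum, as striatum dissected after the frontal cortex was taken off, and as left atrium. Of 16 markers of striatal projection neurons, 9 cleared the background in each of the 8 samples and each of the 16 did so in at least 1 sample. Of 16 markers of atrial muscle, 2 cleared it in each sample and 6 in no sample. Between 15361 and 24020 probes per sample were well above background, and the median signal over background lay between 3.75 and 10.5. Log2 intensities of mice on the same array correlated at 0.986 to 0.989 and those of mice on different arrays at 0.925 to 0.959. Brd2 itself had 2 probes. The probe A_55_P1953545 read 7.75, 8.07, 8.04 and 8.16 in heterozygous mice and 7.39, 7.31, 6.90 and 6.90 in wildtype mice (replicates 1 to 4, log2 intensity, the unit of all levels below). The probe A_55_P1958678 read 11.83, 11.68, 11.75 and 11.70 in heterozygous mice and 11.06, 10.78, 12.01 and 12.02 in wildtype mice. The first probe was thus higher in every heterozygous mouse, while the groups overlapped at the second. The labels do not place the gene trap within Brd2, so neither probe checks the genotypes, which are those of the labels.

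The largest differences among the 9 genes lay at an inhibitor of P-TEFb and at a scaffold of the super elongation complex, in opposite directions. Hexim1 stood 2.54-fold higher in Brd2 heterozygous mice and Aff4 stood 2.65-fold lower, and at both the 4 mice of one genotype did not overlap the 4 of the other. The kinase Cdk9 and its cyclins Ccnt1 and Ccnt2 had overlapping groups at all 6 of their probes. Most probes of the array did too, since the groups did not overlap at 17.0% of all probes tested. Ell and 1 of 2 Larp7 probes were higher and Ell2 was lower, by smaller amounts and without overlap. In the scanner's own processed signals, given below, the groups of Hexim1 and Ell2 did overlap. Those of Aff4, Ell and this Larp7 probe did not. In pooled tissue RNA, fewer cells of a type and less RNA per cell cannot be told apart.

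Of the 14 probes, 13 passed the filter of being well above background in at least 4 samples, and 10 were well above background in all 8. Of the 13, 6 were higher and 7 lower in heterozygous mice. In the limma fit over all 18398 probes tested, 0 of the 13 reached an adjusted p of 0.05, beside a background of 0.00% of all probes. The lowest adjusted p over all probes was 0.437, and 1481 probes had an unadjusted p under 0.05. Groups did not overlap at 5 of the 13 probes, against 17.0% of all probes tested. In 3 of these 5 the heterozygous mice were higher, where the background is 7.86%, and in 2 they were lower, where the background is 9.10%. A log2 difference of at least 1 in size was found at 2 of the 13, against 3.44% of all probes. The median difference over the 13 was −0.01 and the median size 0.35, against −0.02 and 0.25 over all probes. Since the choice of genes used this contrast, these counts are not evidence about the gene set.

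**Figure D1:**
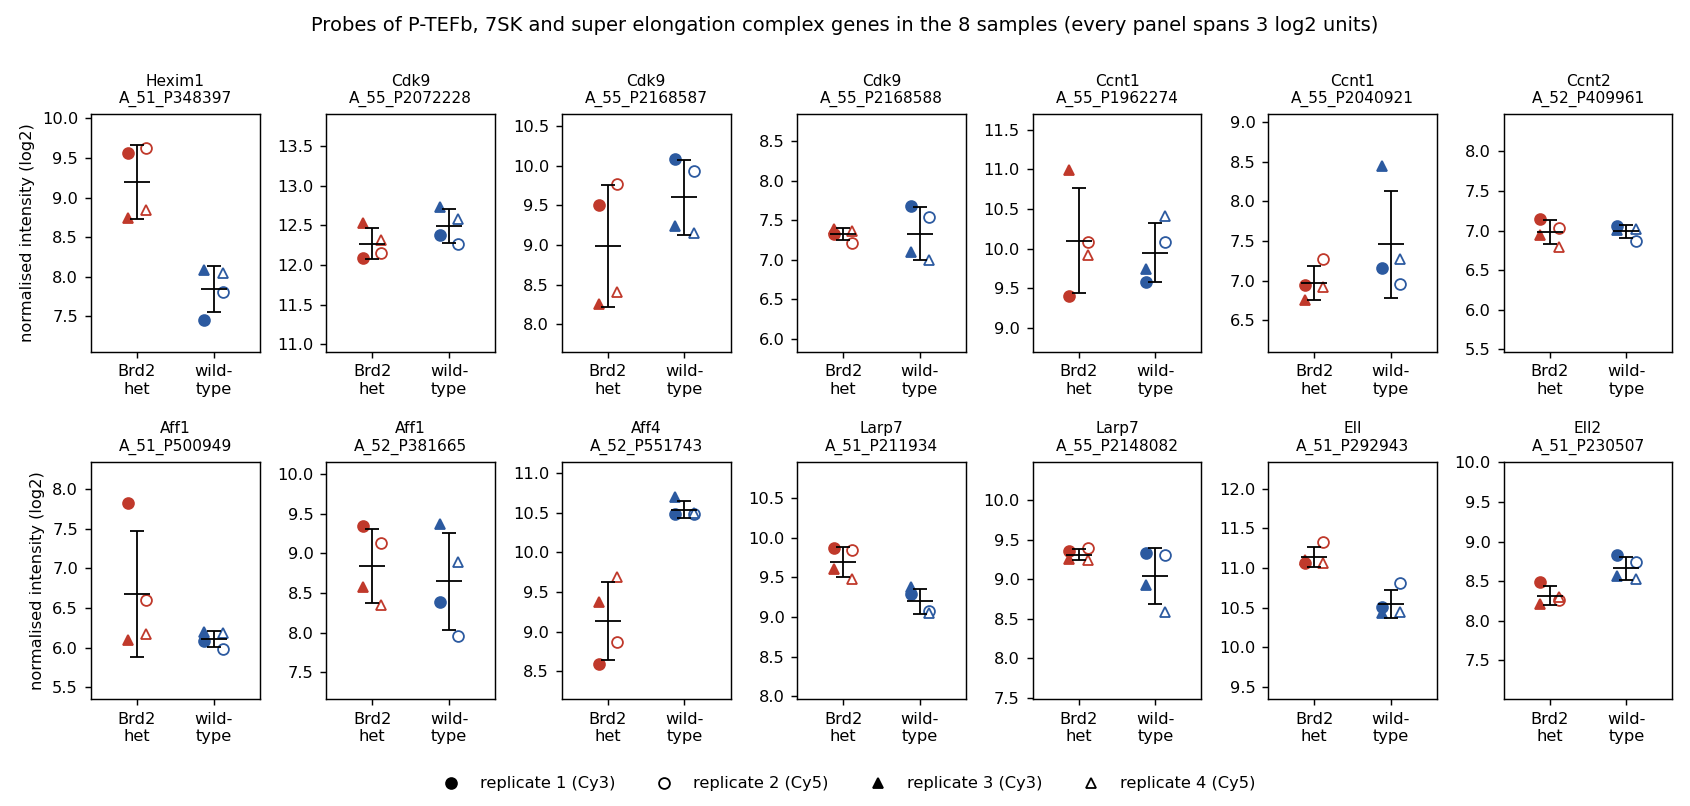
Normalised log2 intensity of each of the 14 probes in Brd2 heterozygous (red, left) and wildtype mice (blue, right); symbols mark the replicate and its dye, bars the mean and SD of 4 mice. Hexim1 lies between 8.74 and 9.63 in heterozygous mice and between 7.45 and 8.09 in wildtype mice, and Aff4 between 8.59 and 9.69 in heterozygous mice and between 10.48 and 10.70 in wildtype mice.

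Hexim1, the protein that inhibits P-TEFb when bound to 7SK RNA, was read by 1 probe (A_51_P348397, chr11:102980827-102980886 on mm9, plus strand). It read 9.56, 9.63, 8.74 and 8.84 in heterozygous mice and 7.45, 7.80, 8.09 and 8.05 in wildtype mice. All heterozygous mice were above all wildtype mice, and within the heterozygous group the mice of replicates 1 and 2, which shared an array, were above those of replicates 3 and 4. The means were 9.19 ± 0.47 in heterozygous and 7.85 ± 0.29 in wildtype mice (SD, n = 4 each), a log2 difference of 1.35 (SE 0.33). The Cy3 samples alone gave 1.38 and the Cy5 samples 1.31. Leaving out the array of heterozygous replicates 1 and 2 gave 0.94, and leaving out that of heterozygous replicates 3 and 4 gave 1.75. The difference thus had the same sign with either heterozygous array, but its size was not the same.

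Larp7, which binds and protects the 7SK RNA, was read by a pair of probes that cover nearly the same stretch of its transcript. They are shown because they measure 1 RNA at 2 places on the slide, 276 rows and 18 columns apart. Both are on chromosome 3, minus strand, A_51_P211934 at chr3:127243550-127243771 across an intron and A_55_P2148082 at chr3:127243718-127243777 (mm9). Capitals mark the 54 of 60 bases that they share, written 5′ to 3′ as in the array files.
Larp7 A_51_P211934: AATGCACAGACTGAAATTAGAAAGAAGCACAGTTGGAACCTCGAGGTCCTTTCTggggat
Larp7 A_55_P2148082: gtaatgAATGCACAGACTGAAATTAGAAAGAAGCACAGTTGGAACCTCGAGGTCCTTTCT

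The probe A_51_P211934 read 9.87, 9.84, 9.61 and 9.48 in heterozygous mice and 9.29, 9.08, 9.38 and 9.05 in wildtype mice. All heterozygous mice were above all wildtype mice there, with means of 9.70 ± 0.19 in heterozygous and 9.20 ± 0.16 in wildtype mice (SD, n = 4 each) and a log2 difference of 0.50 (SE 0.25). The probe A_55_P2148082 read 9.35, 9.39, 9.26 and 9.24 in heterozygous mice and 9.33, 9.31, 8.93 and 8.58 in wildtype mice. Here wildtype replicates 1 and 2 lay inside the heterozygous range and wildtype replicates 3 and 4 below it. The means were 9.31 ± 0.07 in heterozygous and 9.04 ± 0.35 in wildtype mice (SD, n = 4 each), a log2 difference of 0.27 (SE 0.29), which was −0.01 without the array of wildtype replicates 3 and 4. Both probes were higher in heterozygous mice, and they disagreed on whether the groups overlap. Relative to each probe's own mean, the pair differed by 0.042 to 0.50 log2 units within a sample. The widest gap, in wildtype replicate 2, was as large as the genotype difference of the first probe.

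**Figure D2:**
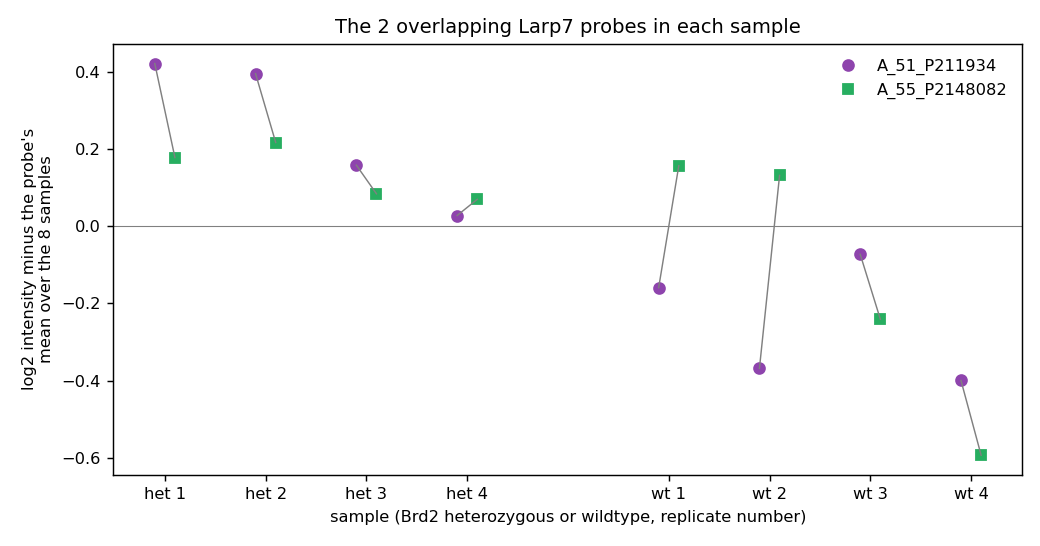
Log2 intensity of the 2 Larp7 probes minus each probe's mean over the 8 samples (vertical axis), by sample, heterozygous left and wildtype right; a grey line joins the probes of a sample. The pair stays within 0.24 log2 units in every heterozygous sample, and in wildtype replicates 1 and 2 the probes lie on opposite sides of 0.

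Cdk9, the kinase of P-TEFb, was read by 3 probes. They are on the minus strand of chromosome 2, at chr2:32563742-32563801 (A_55_P2168587), chr2:32563021-32563080 (A_55_P2072228) and chr2:32561467-32561526 (A_55_P2168588). The first of them showed the widest spread between mice and is printed for that reason, in lower case throughout.
Cdk9 A_55_P2168587: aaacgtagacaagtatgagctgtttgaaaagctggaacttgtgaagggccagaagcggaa

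The probe A_55_P2168587 read 9.51, 9.77, 8.26 and 8.41 in heterozygous mice and 10.09, 9.93, 9.24 and 9.15 in wildtype mice. The groups overlapped, and within both genotypes the array of replicates 1 and 2 read higher than that of replicates 3 and 4. The means were 8.99 ± 0.77 in heterozygous and 9.60 ± 0.47 in wildtype mice (SD, n = 4 each), a log2 difference of −0.62 (SE 0.45). It was −1.27 when heterozygous replicates 1 and 2 were left out and 0.04 when heterozygous replicates 3 and 4 were, so a single array decided its size and its sign. The probe A_55_P2072228 read 12.09, 12.15, 12.53 and 12.31 in heterozygous mice and 12.38, 12.26, 12.74 and 12.59 in wildtype mice. The groups overlapped there too, at means of 12.27 ± 0.20 in heterozygous and 12.49 ± 0.21 in wildtype mice (SD, n = 4 each) and a log2 difference of −0.22 (SE 0.26). The probe A_55_P2168588 was well above background in 6 of 8 samples and read 7.32 ± 0.08 in heterozygous and 7.33 ± 0.33 in wildtype mice (SD, n = 4 each), a log2 difference of −0.01 (SE 0.25). Its last 14 bases, GGGCTGGAGAGATG, were found on either strand in 5 probes of other genes and in 54 of 32851 RefSeq promoters of 300 bases (0.164%). The same search with the first or last 14 bases of the other probes of the 9 genes found at most 2 promoters. This end thus recurs more often than theirs in the sequences searched, which were promoters and array probes only. Whether the probe also binds other transcripts was not tested.

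The cyclins give P-TEFb its activity, and Ccnt1 and Ccnt2 are alternative partners of Cdk9. Ccnt1 had 2 probes on the minus strand of chromosome 15. The probe A_55_P1962274 (chr15:98373717-98373776) read 9.41, 10.08, 10.99 and 9.91 in heterozygous mice and 9.57, 10.08, 9.74 and 10.41 in wildtype mice. Mice that shared an array differed by up to 1.08 at this probe, more than the difference of the means, which were 10.10 ± 0.66 in heterozygous and 9.95 ± 0.37 in wildtype mice (SD, n = 4 each). The log2 difference was 0.15 (SE 0.80). The probe A_55_P2040921 (chr15:98373219-98373278), well above background in 7 of 8 samples, read 6.94, 7.27, 6.76 and 6.92 in heterozygous mice and 7.16, 6.95, 8.45 and 7.27 in wildtype mice. Its log2 difference of −0.48 (SE 0.67) rested on wildtype replicate 3, the only sample above 8. Ccnt2 had 1 dim probe (A_52_P409961, chr1:129700618-129700677, plus strand), well above background in 5 of 8 samples. It read 6.98 ± 0.15 in heterozygous and 6.99 ± 0.08 in wildtype mice (SD, n = 4 each), a log2 difference of −0.01 (SE 0.23). The 2 Ccnt1 probes thus differed in sign, and at all 3 cyclin probes the genotype difference was smaller than its standard error.

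Aff4, the scaffold on which the super elongation complex assembles, was read by 1 probe (A_52_P551743, chr11:53234558-53234617, plus strand). It read 8.59, 8.87, 9.37 and 9.69 in heterozygous mice and 10.48, 10.48, 10.70 and 10.49 in wildtype mice. All heterozygous mice were below all wildtype mice, and they were spread more widely, with the array of replicates 1 and 2 below that of replicates 3 and 4. The means were 9.13 ± 0.49 in heterozygous and 10.54 ± 0.11 in wildtype mice (SD, n = 4 each), a log2 difference of −1.41 (SE 0.36). The Cy3 samples alone gave −1.61 and the Cy5 samples −1.21. Leaving out the first of these arrays gave −1.01 and leaving out the second gave −1.80. In heterozygous mice the same array, that of replicates 1 and 2, held both the highest Hexim1 and the lowest Aff4 readings.

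Aff1, the other scaffold, had 2 probes on the plus strand of chromosome 5. The probe A_52_P381665 (chr5:104284222-104284281) read 9.34, 9.13, 8.57 and 8.34 in heterozygous mice and 8.38, 7.95, 9.37 and 8.90 in wildtype mice. Here the 2 arrays of a genotype differed by more than the genotypes did, at means of 8.85 ± 0.47 in heterozygous and 8.65 ± 0.61 in wildtype mice (SD, n = 4 each) and a log2 difference of 0.20 (SE 0.38). Without the array of wildtype replicates 1 and 2 it was −0.28, and without that of wildtype replicates 3 and 4 it was 0.68. The probe A_51_P500949 (chr5:104276766-104276825) was well above background in 2 of 8 samples, both heterozygous, and was not fitted. It read 7.82, 6.61, 6.10 and 6.18 in heterozygous mice and 6.08, 5.98, 6.19 and 6.19 in wildtype mice. A single heterozygous mouse stood above the rest, and no fold is given because the heterozygous mean lies under the lowest signal that counted as well above background on the wildtype arrays.

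The Ell proteins raise the rate of elongation by suppressing transient pauses of the polymerase, and Ell and Ell2 are paralogs. Ell (A_51_P292943, chr8:73116563-73116622, plus strand) read 11.06, 11.32, 11.10 and 11.07 in heterozygous mice and 10.50, 10.81, 10.43 and 10.44 in wildtype mice. All heterozygous mice were above all wildtype mice, at means of 11.14 ± 0.12 in heterozygous and 10.54 ± 0.18 in wildtype mice (SD, n = 4 each) and a log2 difference of 0.60 (SE 0.27). Ell2 (A_51_P230507, chr13:75908979-75909038, plus strand) read 8.49, 8.26, 8.21 and 8.31 in heterozygous mice and 8.83, 8.74, 8.56 and 8.53 in wildtype mice. Its heterozygous mice were all below its wildtype mice, narrowly so at the closest pair. The means were 8.32 ± 0.12 in heterozygous and 8.66 ± 0.14 in wildtype mice (SD, n = 4 each), a log2 difference of −0.35 (SE 0.25). The paralogs thus had opposite signs, and the 2 arrays of a genotype lay within 0.24 of each other at both.

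Over the 13 fitted probes, mice of the same array lay closer together than the 2 arrays of a genotype at 9. The difference between genotypes exceeded both array-to-array gaps at 5 probes, and the Cy3 and Cy5 samples gave the same sign at 10. Position on the slide also moved with the genotype difference. Over 20795 spots, the difference of a spot correlated at 0.71 with the median difference of the other spots within 8 rows and columns. At the 270 probes printed in 5 or more spots, copies of a probe gave differences with a median SD of 0.38, and at 260 of them the copies lay on both sides of 0.

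Most of the 13 fitted probes lay in regions of the slide that read in the same direction. Around Hexim1 the median difference of 87 neighbouring spots was 0.69, and around Aff4 that of 135 was −0.58. The neighbours' median was 0.23 at Ell, 0.29 and 0.13 at the Larp7 probes and −0.41 at Ell2. At 10 of the 13 probes the sign was that of the neighbours, the exceptions being both Ccnt1 probes and Cdk9 A_55_P2168588, with a correlation of 0.88 over the 13 values as a description. Hexim1 and Aff4 were still farther from 0 than their neighbours' medians, by 0.66 above and 0.82 below, whereas Ell2 was 0.06 above its neighbours' median. Without the lowest and highest 5% of spots, the neighbours ran from 0.14 to 1.36 around Hexim1, whose 1.35 lay inside that range. Around Aff4 they ran from −1.31 to −0.09, and its −1.41 lay just below. Ell, Ell2 and both Larp7 probes also lay inside the range of their neighbours. The part of slide position in these differences was not tested beyond these values and those with the trend removed.

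**Figure D3:**
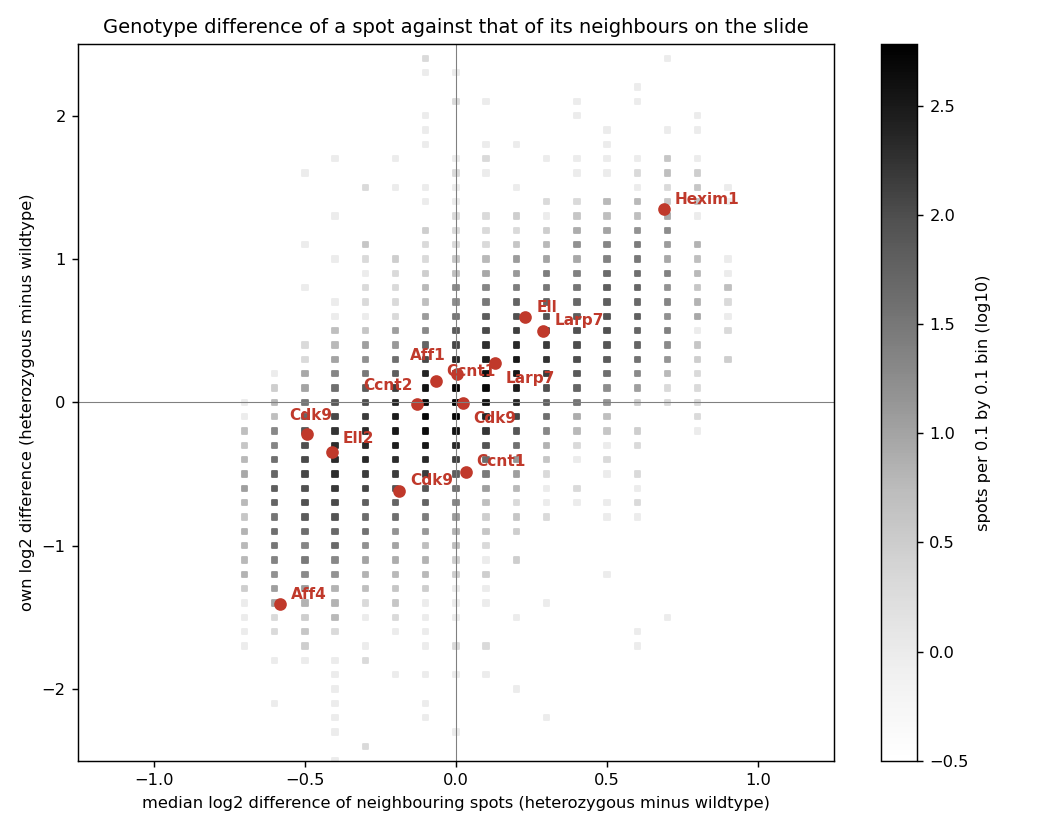
Log2 difference, heterozygous minus wildtype, of each tested spot (vertical axis) against the median difference of the spots within 8 rows and columns (horizontal axis); grey bins give the log10 number of spots and red points the 13 probes of the 9 genes. Hexim1 sits at 0.69 and 1.35, and Aff4 at −0.58 and −1.41, on opposite sides of 0 on both axes.

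Removing a smooth spatial trend from each channel left Hexim1 at 9.37, 9.45, 8.64 and 8.75 in heterozygous mice and 7.62, 7.77, 8.30 and 8.20 in wildtype mice, a log2 difference of 1.08. Aff4 was then at 8.76, 9.23, 9.44 and 9.74 in heterozygous mice and 10.38, 10.40, 10.45 and 10.31 in wildtype mice, a difference of −1.09. Neither gene's groups overlapped. Ell was at 0.49 and Larp7 A_51_P211934 at 0.33, both still without overlap, and Ell2 at −0.13 with overlap. The count of probes without overlap was then 4 of the 13, against 11.2% of all probes. The removal was partial. A spot's difference still correlated at 0.47 with the median of its neighbours, against 0.71 before. Copies of a probe still gave differences with a median SD of 0.27, against 0.38 before.

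The scanner's own processed signals, which are detrended over the slide by the scanner software, gave Hexim1 a log2 difference of 0.93 with overlapping groups. There, heterozygous replicate 3 lay below the highest wildtype mouse, replicate 3. Aff4 was at −1.21, Ell at 0.45 and Larp7 A_51_P211934 at 0.46, all without overlap. With these signals, 3 of the 13 probes had no overlap, against 11.4% of all probes. Aff4 and Ell, and this Larp7 probe, are thus the ones whose groups stayed apart in all 3 sets of values.

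**Figure D4:**
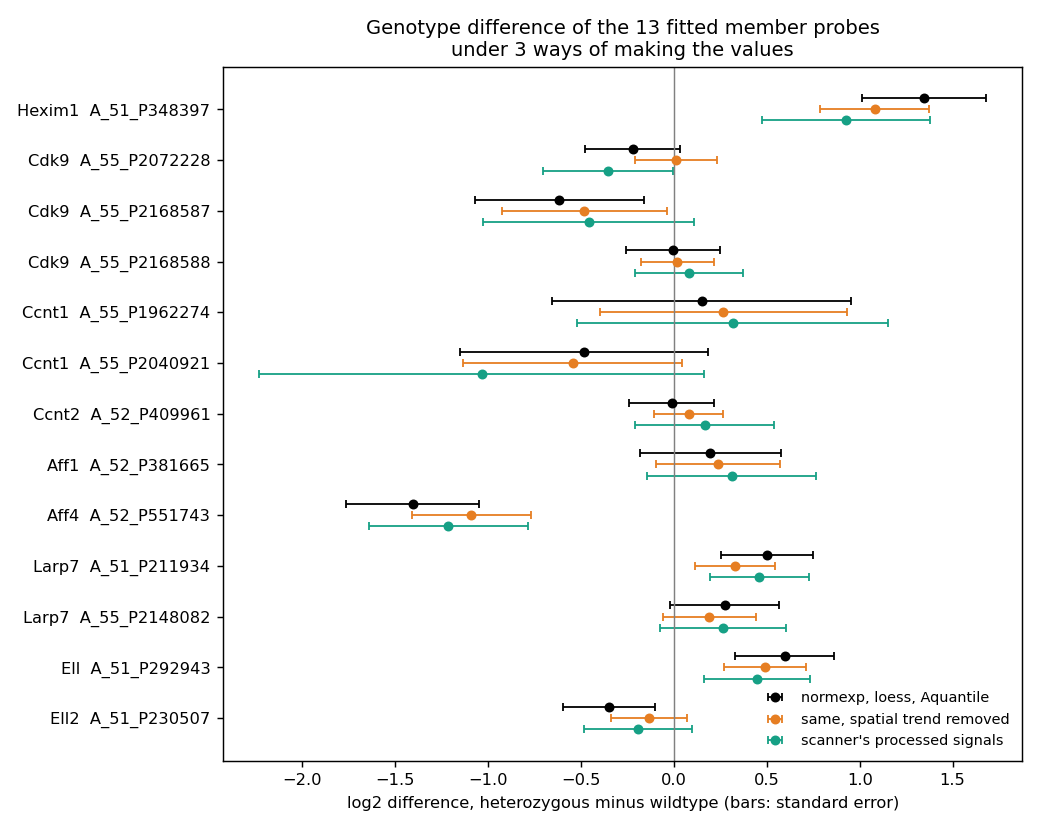
Log2 difference, heterozygous minus wildtype, of the 13 fitted probes (bars: standard error of the fit) from the values used throughout (black), after removal of a spatial trend (orange) and from the scanner's processed signals (green). Hexim1 runs from 1.35 to 0.93 over the 3 sets and Aff4 from −1.41 to −1.09.

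The signals of cell type markers were set beside these values. Markers of cortical excitatory neurons, 10 genes all on the array and each above background in some sample, had a list median between 7.78 and 8.96 in heterozygous mice and between 8.60 and 9.80 in wildtype mice. Their median genotype difference was −0.95 over 9 tested genes, of which 0 were called and 2 had no overlap, against 17.0% of all probes. Of these 2, Emx1 was well above background in 4 wildtype and 0 heterozygous mice. It passed the filter only through the wildtype group, where it was high. Wildtype replicate 1 was the highest wildtype mouse at several of these markers, among them Tbr1 (12.38, the others 8.92 to 9.43). It was not the highest at Rorb, Cux2 or Nrn1. For striatal projection neurons the list median lay between 13.52 and 14.21 in heterozygous mice and between 12.85 and 13.77 in wildtype mice, with a median difference of 0.31 over 9 tested genes, of which 0 were called and 2 had no overlap. The lists for oligodendrocytes, astrocytes, microglia, vessels, choroid plexus with ependyma, and blood had median differences between −0.19 and 0.15. Of the tested genes, 2 of 7 vessel genes had no overlap, in opposite directions (Cldn5 at −1.07 and Pdgfrb at 0.88). In the microglia list 1 of 6 had none (C1qa at 0.56), and the rest of these lists had 0 such genes, against 17.0% of all probes. The list medians do not show the spread between mice or between genes. The choroid plexus list median lay between 8.52 and 10.46 in heterozygous mice and between 7.39 and 11.42 in wildtype mice. Hbb-b1 of the blood list read 16.51 in wildtype replicate 4 and 12.99 to 13.71 in the other wildtype mice. In heterozygous mice Hbb-b1 read 13.01 to 14.24. The part of these cell types in the differences of Hexim1, Aff4, Ell, Ell2 and Larp7 was not tested.

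The genes most like each of the 9 over the 8 samples, after each dye's mean was subtracted, were read as a description. Hexim1 was closest to Krr1 (r = 0.998), whose genotype difference was 1.37, and to Edem2 (r = 0.996), at 0.74. Krr1 was printed 15 rows and 2 columns from Hexim1, and Edem2 9 rows and 1 column from it. Aff4 was closest to Atcay (r = 0.997), at −1.30 and 9 rows and 11 columns away, and to Pde11a (r = 0.996), at −0.87 and 49 rows and 27 columns away. Both Hexim1 matches and the nearer Aff4 match were thus spots of the same region of the slide. Ell was closest to Tsen54 (r = 0.992) and Zfp866 (r = 0.992), printed 297 and 416 rows away. Over all 18 such pairs r was between 0.964 and 0.998, 8 samples on 4 arrays being behind each, and 3 pairs lay within 15 rows and columns.

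The surrounding machinery of elongation was read from a list of 76 genes, of which 74 were on the array and 60 could be tested. Of these 60, 0 passed the limma test in either direction, 31 stood higher and 29 lower in heterozygous mice, and the median difference was 0.02. Groups did not overlap at 12, or 20%, 6 in each direction, against 17.0% of all probes. Each gene was read by its brightest tested probe, and the probes of Ctdsp2, Rpap2 and Brdt did not give 1 answer, as stated below. Other genes of the list, among them Dot1l, Tgs1, Hexim2 and Brd2, also had tested probes that differed in sign or in overlap.

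The 7SK list holds proteins of the inhibited complex and factors that release P-TEFb from it. It had no overlap at 2 of 12 tested genes, a share near the 17.0% of all probes. Both genes were higher, and 7.86% of all probes were higher without overlap. Mepce, which caps the 7SK RNA, averaged 12.50 ± 0.15 in heterozygous and 12.02 ± 0.12 in wildtype mice (SD, n = 4 each), a log2 difference of 0.48. Ppm1g, a phosphatase that frees P-TEFb from 7SK, averaged 10.24 ± 0.27 in heterozygous and 9.65 ± 0.20 in wildtype mice (SD, n = 4 each), a difference of 0.60. The other 10 genes tested from this list overlapped between genotypes.

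Among partners of the super elongation complex, 3 of the 8 tested genes had no overlap, against 17.0% of all probes. All 3 were lower, and 9.10% of all probes were lower without overlap. Eaf1, which binds the Ell proteins, averaged 8.33 ± 0.21 in heterozygous and 9.05 ± 0.17 in wildtype mice (SD, n = 4 each), a log2 difference of −0.72. Mllt6, a partner of the histone methyltransferase Dot1l, had a difference of −0.47. Kmt2a, well above background in 5 of 8 samples, was at −0.33. A Dot1l probe that was not the brightest was higher without overlap, at 0.51. The median over the 8 was −0.13. Med26, a Mediator subunit on the same list, was not tested because outlier spots left wildtype replicates 1 and 2 without a value. It read 9.37, 9.90, 9.54 and 9.65 in heterozygous mice and at most 8.28 in wildtype replicates 3 and 4, higher in every heterozygous mouse. It was chosen for mention after its values were seen.

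In the PAF1 complex, which travels with elongating polymerase, 2 subunits stood on opposite sides. Leo1 averaged 9.83 ± 0.13 in heterozygous and 10.68 ± 0.25 in wildtype mice (SD, n = 4 each), a log2 difference of −0.85, and Paf1 had a difference of 0.56. Nelfa, of the pausing factor NELF, was at −0.48, while the other 4 tested genes of the list of NELF, DSIF and the polymerase-associated Gdown1 overlapped. Gtf2f2, a subunit of TFIIF, was at 0.42.

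The polymerase tail phosphatase Ctdsp2 had the largest difference among the tested genes of the list, 1.35 (SE 0.44) by its brightest probe. It read 10.68, 10.55, 9.13 and 8.97 in heterozygous mice and 8.61, 8.64, 8.46 and 8.22 in wildtype mice. As at Hexim1, the array of heterozygous replicates 1 and 2 stood above that of heterozygous replicates 3 and 4. Its other 2 tested probes gave −0.53, with all heterozygous mice below all wildtype mice, and 0.04 with overlap, so the probes of Ctdsp2 disagreed in direction. Rpap2, another tail phosphatase, was at 0.74 by its brightest probe, and at 0.08 and 0.20 with overlap by its other 2 tested probes. All 10 of the genes named from the list had the sign of their neighbours on the slide, with a neighbours' median of 0.35 at Ctdsp2, −0.30 at Leo1, 0.55 at Rpap2 and −0.48 at Eaf1. The BET genes Brd3 and Brdt were at −0.14 and −0.31 by their brightest probes, both overlapping. The second tested Brdt probe was at 0.59 without overlap, opposite in sign to the first.

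**Figure D5:**
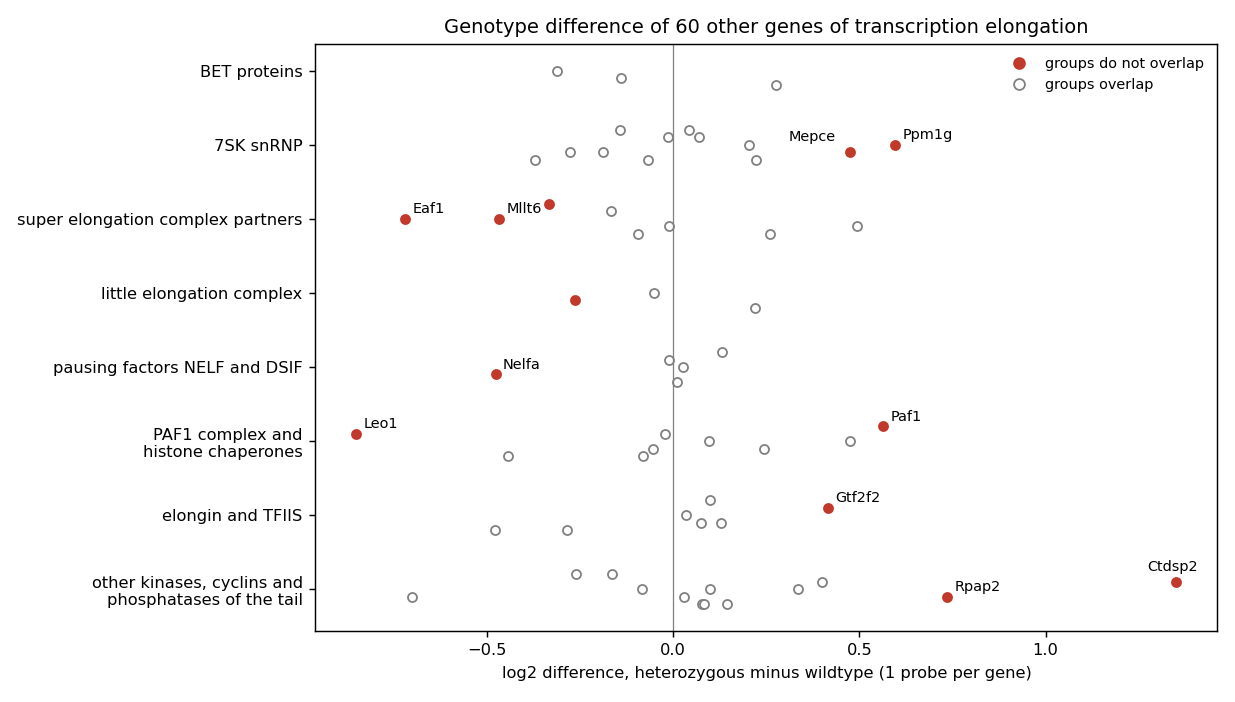
Log2 difference, heterozygous minus wildtype, of 60 other genes of transcription elongation, 1 probe per gene, by group of the list; filled red points are genes whose 4 heterozygous and 4 wildtype mice do not overlap. The points lie on both sides of 0 in all 8 groups, from −0.85 at Leo1 to 1.35 at Ctdsp2.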

How the data were processed

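Each mouse was read from its own channel of a two-colour array. The scanner files hold raw spot and local background intensity, and the scanner's processed intensity, per the file headers (Agilent Feature Extraction 11.0.1.1, coordinates on mm9). The linear ratio in the value table that the authors deposited equals the median spot signal minus local background, divided by the column's median; this was found by comparison with the scanner values. The deposited intensities were turned into log2 values here. In limma 3.58.1 (R 4.3.3), background was corrected by normexp (offset 50), arrays were normalised internally by loess and against each other by Aquantile. Control and outlier spots were dropped and repeat spots of a probe averaged. Probes well above background in at least 4 of 8 samples and with a value in all 8 were fitted by lmFit and eBayes on genotype and dye, with array as a random block (correlation 0.81). P-values were adjusted by Benjamini-Hochberg over all 18398 probes at 0.05. The fit was tested on simulated data. Those data held noise between arrays and between samples but no trend over the slide, so they do not show how the fit handles slide position. Names came from the array files and a RefSeq table, which named 27234 probes.

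The members, the lists and most alternatives were chosen with earlier results of these data known. The named genes were every probe of the 9 genes, Brd2, up to 10 genes of the elongation list with the largest difference and no overlap, read by the brightest tested probe, and the 2 genes most like each of the 9. Replicates are separate mice per the labels. The number of arrays, 2 per genotype, limits the precision.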

Additional observations from a re-analysis of the deposited data

Results flagged for a closer look

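Within each genotype, the highest and lowest of the 4 mice were compared with the others at the 14 probes, 28 groups in all, and 2 readings stood apart from their group. Chance alone marks about 1 in 20 groups. Ell read 11.32 in heterozygous replicate 2, while the other heterozygous mice lay between 11.06 and 11.10. Aff4 read 10.70 in wildtype replicate 3, while the other wildtype mice lay between 10.48 and 10.49. Both readings were farther from the other genotype than the rest of their group, so leaving either out did not make the genotypes overlap.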

How the results depend on the processing

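No alternative turned the sign of Hexim1 (0.66 to 1.75), Aff4 (−1.80 to −0.82), Ell (0.37 to 0.71) or Larp7 A_51_P211934 (0.21 to 0.66) over 31 settings each. Their values nearest to 0 came from subtracting the neighbouring spots' median, an alternative chosen after seeing the data, which also put Ell2 at 0.06. Over all probes, where 0 were called, other settings called 2 (Aquantile without loess), 1 (the authors' deposited value table), 5 (without the array of heterozygous replicates 3 and 4), 19 (without that of wildtype replicates 1 and 2) and 13 (without that of wildtype replicates 3 and 4). Leaving out 1 mouse called 0 to 1, the call coming without wildtype replicate 4. Ignoring that mice share arrays called 539 probes overall and 3 of the elongation list; the replicate block called 676 overall and 3 of the list. Both leave out the spread between arrays. Deviations of same-numbered mice correlated at 0.04, 0.26, 0.16 and 0.12 (0.07 and 0.17 with dye means removed), and 4 of 8 mice correlated best with their own number. The labels give the numbers no shared origin and not every pair was clearly positive, so the numbers were not used as pairs. Of the 14 probes, 4 were not well above background in every sample, and the 2 arrays per genotype limit what can be told.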
